A study of Mus musculus with 6 samples.

Results

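The machinery of endoplasmic reticulum (ER)-associated degradation was examined through 10 genes: Syvn1, Sel1l, Herpud1, Derl1, Derl2, Derl3, Os9, Edem1, Edem2 and Dnajb9. They were chosen by their symbols in the platform annotation, from the 22180 genes that carried a probe set with 1 symbol. All 10 were measured, by 12 such probe sets in all, and the probe set with the highest mean was taken where a gene had 2 (Derl2 and Edem1). Livers came from male Balb/cBy mice, which the series labels KD, and from male Balb/c mice, which it labels WT, with 3 mice and 3 arrays per substrain. All mice were housed singly, began a high-fat diet (58% of its energy from fat) at 8 weeks of age, ate it for 12 weeks and were 20 weeks old, so no group on an ordinary diet stands beside them. What KD stands for, and which gene it would concern, the labels leave unsaid. BALB/cBy mice are known to carry a spontaneous deletion in Acads, and as a separately bred substrain they can differ from BALB/c at other loci too. Values are deposited log2 RMA values, in which 1 unit is a doubling of signal. Differences are Balb/cBy minus Balb/c, with the standard error (SE) of limma, a linear model with moderated variances fitted to all 23521 probe sets with 1 symbol, and p-values were adjusted over all of these.

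ER-associated degradation removes proteins that fail to fold in the ER. Luminal lectins and chaperones recognise such a protein, a membrane complex passes it back to the cytosol and tags it with ubiquitin, and the proteasome destroys it. The ubiquitin ligase SYVN1, also called HRD1, and its adaptor SEL1L form the core of the best-known complex. Hepatocytes secrete much of the blood's protein and use this route heavily, and many of its genes are induced by the unfolded protein response through the transcription factors XBP1 and ATF6.

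The sequences before the start sites were read for elements that factors of this response are known to bind. They are given for the genes whose window held an ER stress element and for Sel1l, the partner of Syvn1. RefSeq promoter windows of build GRCm38.p6, from 250 bases before to 50 after a start site, matched 9 of the 10 genes, all but Derl1, with 2 windows for Derl2. Both strands were searched for the ER stress response element (ERSE, which is CCAAT and CCACG with any 9 bases between), its second form (ERSE-II, which is ATTGG and CCACG with any 1 base between), the unfolded protein response element (TGACGTGG), the cyclic AMP response element (TGACGTCA) and the ATF4 composite site (TTGCATCA). The 250 bases before the start site are printed 5′ to 3′ on the strand of the gene, with ERSE or ERSE-II matches in capitals. They lie at chr19:6046326-6046575 on the plus strand for Syvn1, chr10:75893148-75893397 on the plus strand for Derl3, chr8:94386179-94386428 on the plus strand for Herpud1 and chr12:91849158-91849407 on the minus strand for Sel1l.
Syvn1: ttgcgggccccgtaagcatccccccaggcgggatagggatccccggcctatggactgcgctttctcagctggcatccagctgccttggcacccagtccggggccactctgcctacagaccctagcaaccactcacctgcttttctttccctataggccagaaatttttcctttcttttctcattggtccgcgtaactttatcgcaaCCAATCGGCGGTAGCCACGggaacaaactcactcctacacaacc
Derl3: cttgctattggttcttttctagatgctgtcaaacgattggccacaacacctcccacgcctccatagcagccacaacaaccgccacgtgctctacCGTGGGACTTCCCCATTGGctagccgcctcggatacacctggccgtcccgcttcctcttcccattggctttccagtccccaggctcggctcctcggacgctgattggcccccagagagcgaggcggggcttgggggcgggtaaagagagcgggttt
Herpud1: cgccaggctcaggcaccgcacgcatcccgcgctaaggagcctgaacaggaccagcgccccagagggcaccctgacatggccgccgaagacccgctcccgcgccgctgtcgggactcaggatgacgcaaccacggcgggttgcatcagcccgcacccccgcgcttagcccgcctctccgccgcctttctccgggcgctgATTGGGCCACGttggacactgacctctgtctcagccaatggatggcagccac
Sel1l: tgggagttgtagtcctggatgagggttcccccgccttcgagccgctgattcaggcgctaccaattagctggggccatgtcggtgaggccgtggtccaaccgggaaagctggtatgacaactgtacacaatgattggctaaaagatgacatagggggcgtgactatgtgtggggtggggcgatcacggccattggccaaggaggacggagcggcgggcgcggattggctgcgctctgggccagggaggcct

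Syvn1 held an ERSE from base -44 to -26, counted from the start site, and Derl3 held one on the opposite strand from -156 to -138. Among all 32851 windows, 39 (0.119%) held an ERSE. Herpud1 held an ERSE-II from -52 to -42, as did 12 windows in all (0.0365%), and an ATF4 composite site from -112 to -105, which 294 windows (0.895%) shared. The 2 Herpud1 matches do not overlap. The element TGACGTGG was in 222 windows (0.676%) and TGACGTCA in 588 (1.79%), and no window of the 10 genes held either. The Sel1l window held none of the 5 motifs, which says only that these letters are absent there.

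Over the whole array, of 23521 probe sets, 0 (0%) passed an adjusted p of 0.05 in limma, with the smallest at 0.177, and 899 had an unadjusted p under 0.05. With array weights, limma passed 31 (0.132%). Pearson correlations between arrays across genes were 0.977 to 0.990 within groups and 0.977 to 0.991 between them. The lowest array weights belonged to Balb/cBy replicate 1 (0.471) and Balb/c replicate 3 (0.635). Hepatocyte markers were all bright: the 9 measured of 10, from Alb to Hnf4a, lay above 8.02, the 95th percentile of the means of 1105 olfactory receptor genes, used here as a mark of background signal. The main probe sets of all 10 degradation genes also lay above it.

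Most of the 10 degradation genes read higher in Balb/cBy livers, led by the core ligase and its adaptor. The 10 were chosen with earlier results of these data known, so the counts below describe them and are no test of the set. The mean log2 value over the 10 genes was 10.81 on each of the 3 Balb/cBy arrays, against 10.67, 10.45 and 10.48 on the Balb/c arrays. Individually, 9 differences were positive and 1 negative. Their median was 0.24, against -0.0028 over all genes, and it was 0.16 without Balb/c replicate 2. All 10 lay above 8.02, as did 11240 of the 22180 genes. With brighter probe sets only, the median over genes was 0.020. The shares of all genes given below include the dimmer ones. None of the 10 passed the adjusted threshold. At an unadjusted p under 0.05, 3 of the 10 were higher (Syvn1, Sel1l and Derl1) and 0 lower, where 2.59% of all genes were higher and 1.15% lower. In the same 3 genes every Balb/cBy array lay above every Balb/c array, a separation found in 4.32% of all genes, while 3.51% of all genes showed the opposite one and 0 of the 10 did. In liver pieces, a change in the share of a cell type cannot be told apart from a change of RNA per cell.

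**Figure D1:**
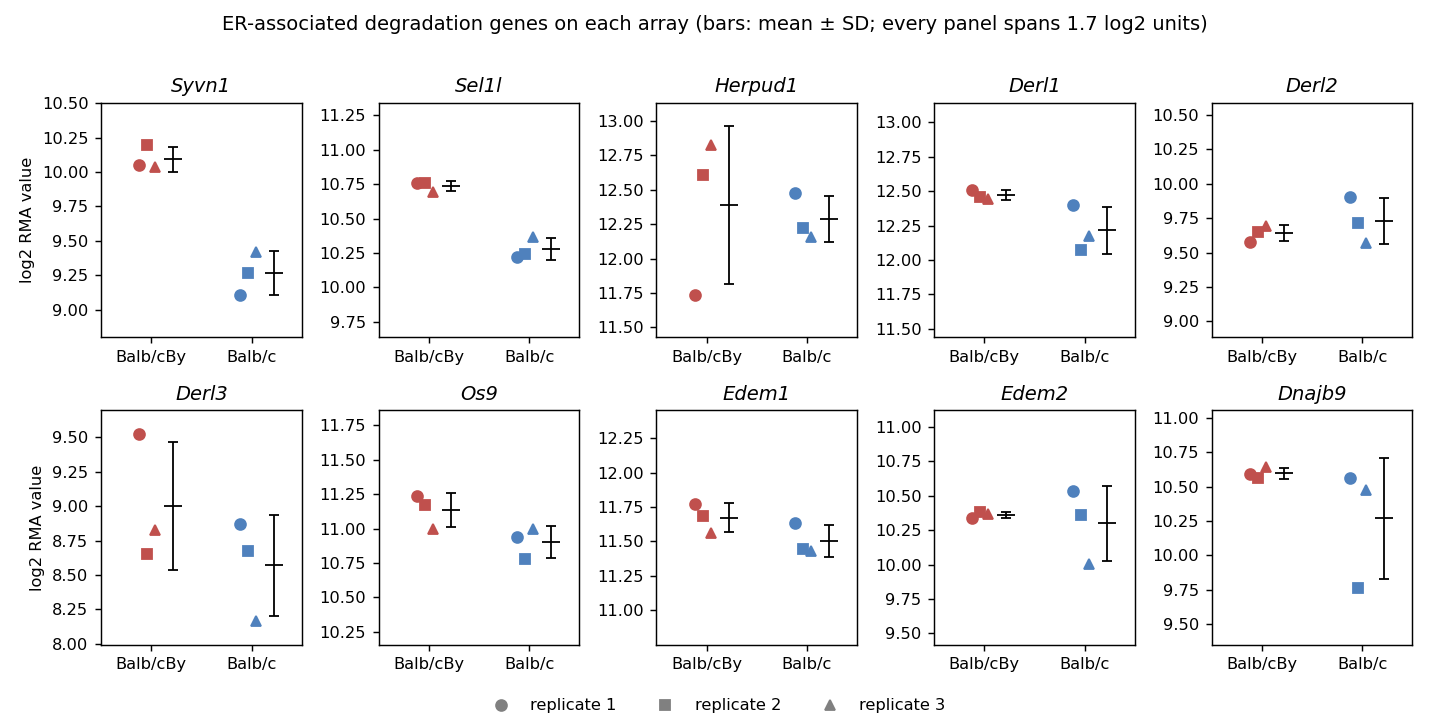
Log2 RMA values of the 10 genes on each array, Balb/cBy (red) left of Balb/c (blue), with symbols for the replicate number and black bars for the mean ± SD of 3 arrays. Syvn1 and Sel1l separate the substrains without overlap, while Herpud1 spreads from 11.74 to 12.82 within Balb/cBy and Dnajb9 has a single low Balb/c array at 9.76.

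Syvn1 encodes the membrane ubiquitin ligase that gives the complex its activity. It read 10.05, 10.20 and 10.04 on the Balb/cBy arrays, against 9.11, 9.27 and 9.42 on the Balb/c arrays. The lowest Balb/cBy array stood 0.61 above the highest Balb/c array. The mean was 10.09 ± 0.090 in Balb/cBy and 9.27 ± 0.16 in Balb/c (SD, n = 3 each). The difference of 0.83 ± 0.11 (SE) amounts to 1.77 times the Balb/c level (95% interval 1.49 to 2.12). In limma its unadjusted p was 6.3e-05 and its adjusted p 0.177. With array weights it passed at 0.87 (adjusted p = 0.0356), the lowest value among alternatives that ran from 0.0356 to 0.600. Whichever array was left out, the difference stayed between 0.75 and 0.91.

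Sel1l encodes the adaptor that holds luminal lectins to the ligase and keeps SYVN1 stable. Its values were 10.76, 10.76 and 10.69 on the Balb/cBy arrays and 10.22, 10.25 and 10.37 on the Balb/c arrays. The groups lay 0.33 apart at their nearest arrays. The means were 10.74 ± 0.037 in Balb/cBy and 10.28 ± 0.079 in Balb/c (SD, n = 3 each), a difference of 0.46 ± 0.089 (SE), or 1.37 times (95% interval 1.19 to 1.58). Its limma p was 0.000855 unadjusted and 0.439 adjusted, and the alternatives ran from 0.124 to 0.99995 for the adjusted value. Without single arrays the difference was 0.43 to 0.50. Whether Syvn1 differed more than Sel1l was not tested.

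Ighm and Jchain, from a marker list of plasma cells, which secrete antibody and also depend on this machinery, read higher in the same livers. The heavy chain gene Ighm had 10.58, 11.29 and 11.47 on the Balb/cBy arrays and 9.54, 9.40 and 9.63 on the Balb/c arrays, a difference of 1.59 ± 0.21 (SE). Jchain, which joins antibody units, had 7.44, 8.31 and 8.70 on the Balb/cBy arrays and 7.09, 6.91 and 7.10 on the Balb/c arrays. Its difference was 1.12 ± 0.28 (SE), with all Balb/c arrays and Balb/cBy replicate 1 below 8.02. The list of plasma cell markers as a whole held 10 genes, of which 8 were measured, 4 higher and 4 lower, and 3 lay above 8.02. Its values were summed before the log2 was taken, which gives most weight to the brightest gene, Ighm. That summed level on the log2 scale ran from 11.80 to 12.34 in Balb/cBy and from 11.37 to 11.53 in Balb/c. The median difference of the 8 measured genes was 0.015. Other genes of the list had overlapping groups. Mzb1 averaged 7.98 in Balb/cBy and 7.92 in Balb/c, Sdc1 9.64 in Balb/cBy and 9.69 in Balb/c, and Prdm1 8.004 in Balb/cBy and 8.035 in Balb/c. Mzb1 averaged under 8.02 in both substrains and Prdm1 lay close to it, so their overlap says little about plasma cells. Sdc1 lay above 8.02 on every array, and its groups overlapped as well. Irf4, Pou2af1 and Tnfrsf17, which also averaged under 8.02 in both substrains, differed by -0.13, -0.074 and 0.088. Within Balb/cBy, Syvn1 lay between 10.04 and 10.20 while Ighm lay between 10.58 and 11.47, and the part of these cells in the values was not tested. The summed level of hepatocyte markers, again weighted to the brightest genes, was 16.45 to 16.57 in Balb/cBy and 16.48 to 16.55 in Balb/c. Of the 9 measured, 5 were higher and 4 lower, and Serpina1a differed by 0.55 ± 0.21 (SE). Stellate cell genes were higher in 6 of 7 measured, with a summed level of 12.95 to 13.33 in Balb/cBy and 12.66 to 13.03 in Balb/c. The brightest of them, Dcn, differed by 0.48 ± 0.14 (SE), while Col1a1 differed by 0.0053 ± 0.12 and Col3a1 by -0.029 ± 0.12 (SE). The part of stellate cells was not tested either. Kupffer cell genes were higher in 3 of 6, cholangiocyte genes in 1 of 4 and endothelial genes in 4 of 5.

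Herpud1 encodes a stress-induced membrane protein that recruits derlins and substrates to the complex. It read 11.74, 12.61 and 12.82 on the Balb/cBy arrays and 12.48, 12.23 and 12.16 on the Balb/c arrays. Balb/cBy replicate 1 was the lowest of the 6 arrays and the other Balb/cBy arrays were the highest, so the groups overlapped. The difference was 0.10 ± 0.26 (SE), with a 95% interval of -0.49 to 0.69. Without Balb/cBy replicate 1 it was 0.43 (limma's p was 0.0143 unadjusted and 0.560 adjusted), and without Balb/cBy replicate 3 it was -0.11.

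The derlins, multipass proteins thought to form part of the channel through which substrates leave the ER, gave unlike values. Derl1 read 12.51, 12.46 and 12.44 on the Balb/cBy arrays and 12.40, 12.07 and 12.17 on the Balb/c arrays. Its groups lay only 0.038 apart at their nearest arrays. The difference was 0.25 ± 0.11 (SE), or 1.19 times (95% interval 1.003 to 1.416), with an unadjusted limma p of 0.0465 and an adjusted p of 0.999. The unadjusted p stayed under 0.05 in 3 of 15 alternatives.

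Derl2 read 9.58, 9.65 and 9.69 on the Balb/cBy arrays and 9.91, 9.72 and 9.57 on the Balb/c arrays. It was the 1 gene of the 10 with a negative difference, -0.088 ± 0.11 (SE, 95% interval -0.34 to 0.16), and the Balb/c arrays enclosed the Balb/cBy ones. Without Balb/c replicate 1 the difference was -0.00041, and without Balb/c replicate 3 it was -0.17. Its dimmer probe set differed by 0.030 ± 0.20 (SE). A further probe set, annotated to both Mis12 and Derl2 and so assigned to neither, differed by 0.44 ± 0.23 (SE, unadjusted limma p of 0.0962), opposite in sign to the value above.

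Derl3, the family member typical of cells with heavy secretion, read 9.53, 8.65 and 8.83 on the Balb/cBy arrays and 8.87, 8.67 and 8.16 on the Balb/c arrays. One high array, Balb/cBy replicate 1, and one low array, Balb/c replicate 3, carried its difference of 0.43 ± 0.25 (SE, 95% interval -0.15 to 1.01). The difference was 0.17 without the high array, 0.23 without the low one and -0.034 without both. Markers of the exocrine pancreas, another tissue that expresses Derl3, were measured for 8 of 11 genes, 0 of them higher in Balb/cBy and 4 above 8.02. Their summed level was 10.72 to 10.93 in Balb/cBy and 10.92 to 11.52 in Balb/c, highest on the Balb/c array where Derl3 was lowest, and the part of this tissue in the Derl3 values was not tested.

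The lectins and mannosidase-like proteins that pick out misfolded glycoproteins showed small differences. Os9 encodes a lectin that delivers trimmed glycoproteins to SEL1L. It read 11.240, 11.171 and 10.999 on the Balb/cBy arrays and 10.938, 10.777 and 10.999 on the Balb/c arrays. The lowest Balb/cBy and the highest Balb/c array coincided, and the difference was 0.23 ± 0.11 (SE, 95% interval -0.014 to 0.48, unadjusted limma p of 0.0613).

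Edem1 and Edem2 act on the mannose residues of misfolded glycoproteins. Edem1 read 11.77, 11.68 and 11.56 on the Balb/cBy arrays and 11.63, 11.44 and 11.43 on the Balb/c arrays, with groups that overlapped at 1 array each. Its difference was 0.17 ± 0.10 (SE, 95% interval -0.067 to 0.41), and its dimmer probe set, under 8.02, differed by 0.080 ± 0.087 (SE). Edem2 read 10.339, 10.379 and 10.367 on the Balb/cBy arrays and 10.535, 10.358 and 10.005 on the Balb/c arrays. The Balb/c arrays spread on both sides of the tight Balb/cBy group, and the difference was 0.062 ± 0.14 (SE, 95% interval -0.25 to 0.38). It was 0.18 without Balb/c replicate 1 and -0.085 without Balb/c replicate 3.

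Dnajb9 encodes ERdj4, a partner of the chaperone HSPA5 that also restrains the stress sensor IRE1. It read 10.59, 10.56 and 10.64 on the Balb/cBy arrays and 10.56, 9.76 and 10.47 on the Balb/c arrays. Only Balb/c replicate 2 stood clearly apart from the rest. The difference of 0.33 ± 0.20 (SE, 95% interval -0.12 to 0.78) was 0.078 without that array.

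**Figure D2:**
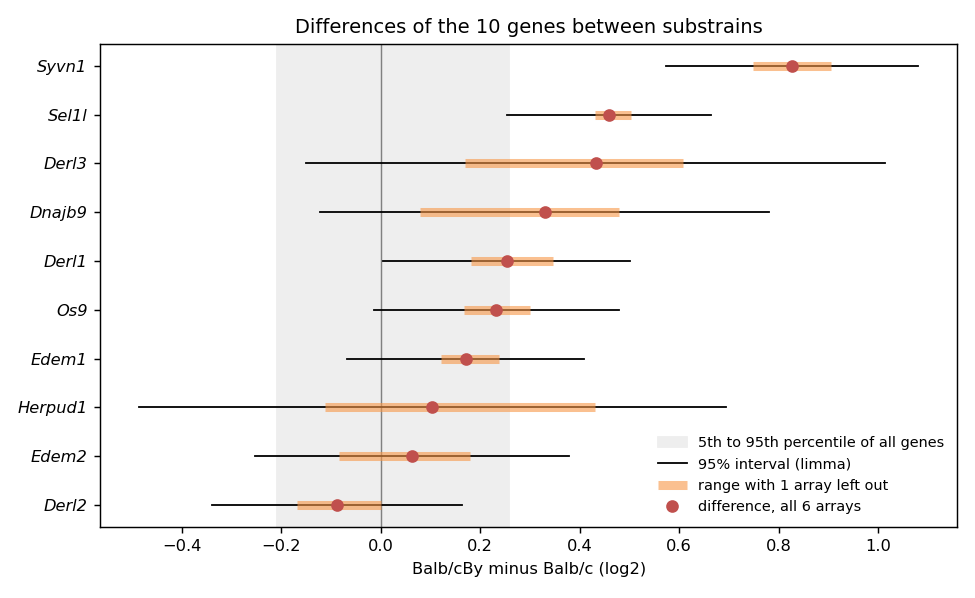
Differences of the 10 genes (Balb/cBy minus Balb/c, log2) with limma's 95% interval (black line), the range when 1 array at a time was left out (orange) and the 5th to 95th percentile of all genes, -0.21 to 0.26 (grey). Only the intervals of Syvn1, Sel1l and Derl1 lie wholly above 0, and the orange ranges of Herpud1 and Edem2 cross it.

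The 10 genes did not vary as a block from mouse to mouse. Balb/cBy replicate 1 gave the highest value of the 6 arrays for Derl1, Derl3, Os9 and Edem1 and the lowest for Herpud1. Derl3 lay 0.74 above its own mean over all arrays there, and Herpud1 0.60 below. Balb/c replicate 2 gave the lowest value for Dnajb9 (0.67 below its mean), Derl1 and Os9. The near-identical Balb/cBy means of 10.81 therefore sum deviations of opposite sign.

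**Figure D3:**
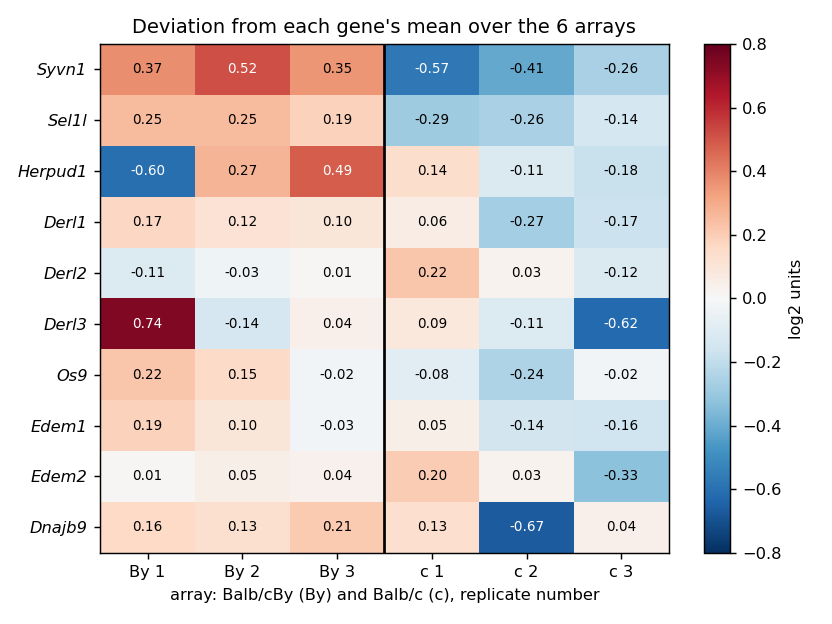
Deviation of each of the 10 genes from its own mean over the 6 arrays (log2 units), with the 3 Balb/cBy arrays (By) left of the 3 Balb/c arrays (c). Syvn1 and Sel1l are positive on every Balb/cBy array and negative on every Balb/c array, whereas Herpud1 (-0.60) and Derl3 (0.74) take opposite signs on Balb/cBy replicate 1.

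The other genes of the pathway had a smaller median difference. Of 79 further genes in 4 lists, 74 were measured, 49 of them higher and 25 lower in Balb/cBy. Their median difference was 0.074. None passed the adjusted threshold. At an unadjusted p under 0.05, 7 were higher and 0 lower, where 2.59% of all genes were higher and 1.15% lower. Of these 7, 5 were among the 16 genes of luminal recognition and trimming, 1 among 18 ligases and their E2 enzymes, 1 among 20 genes of extraction and hand-over to the proteasome, and 0 among 20 membrane partners. The median difference was 0.072 for luminal recognition, 0.074 for ligases, 0.052 for extraction and 0.088 for membrane partners.

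Sdf2l1, a luminal chaperone partner, had the smallest p of the wider lists. It read 11.39, 10.51 and 10.93 on the Balb/cBy arrays and 10.22, 10.32 and 9.73 on the Balb/c arrays, a difference of 0.85 ± 0.23 (SE, unadjusted limma p of 0.00636) that was 0.63 without Balb/cBy replicate 1. Uggt1, which senses incompletely folded glycoproteins, differed by 0.27 ± 0.097 (SE). Dnajb11, an HSPA5 partner, read 10.74, 10.15 and 10.12 in Balb/cBy and 9.96, 9.77 and 10.01 in Balb/c, and its difference of 0.43 ± 0.17 (SE) was 0.23 without Balb/cBy replicate 1. Sdf2l1 and Dnajb11 were thus highest on the array where Derl3 was highest. Fbxo6, which recognises glycoproteins in the cytosol for ubiquitination, differed by 0.27 ± 0.11 (SE).

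Among the lower genes, Man1a2, a Golgi mannosidase, differed by -0.25 ± 0.12 (SE). Fam8a1, which helps to assemble the SYVN1 complex, differed by -0.22 ± 0.11 (SE), with 9.48, 9.41 and 9.57 on the Balb/cBy arrays below 9.63, 9.62 and 9.87 on the Balb/c arrays. The ligase genes Rnf170 and Rnf103 differed by -0.19 ± 0.12 and -0.13 ± 0.12 (SE), with overlapping groups. None of the 4 had an unadjusted limma p under 0.05.

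**Figure D4:**
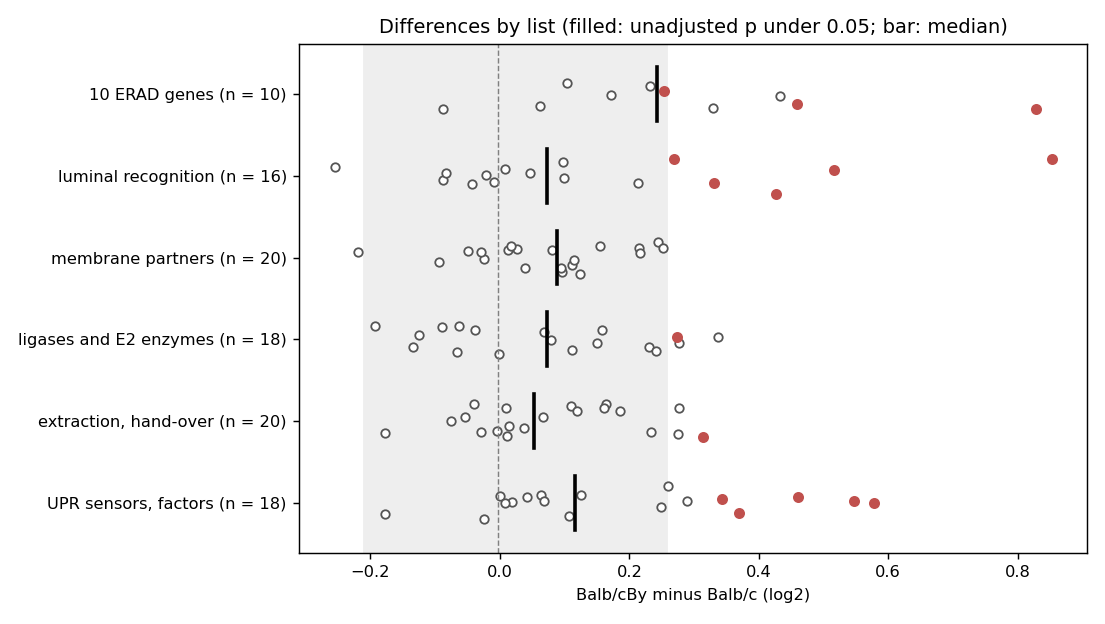
Differences (Balb/cBy minus Balb/c, log2) of the 10 genes, the 4 wider lists and the unfolded protein response list, 1 point per gene, filled where the unadjusted limma p was under 0.05, with black bars at the list medians, a grey band from the 5th to the 95th percentile of all genes and a dashed line at the median of all genes. Filled points lie on the positive side only, and the 10 genes have the median farthest to the right, at 0.24.

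Sensors and transcription factors of the unfolded protein response were counted for comparison. Of 18 measured genes, 16 were higher and 2 lower, with a median of 0.12, where 10883 of all 22180 genes were higher. At an unadjusted p under 0.05, 5 of the 18 were higher and 0 lower, against 2.59% and 1.15% of all genes. The chaperone gene Hspa5 differed by 0.58 ± 0.12 (SE), Creb3l2, a membrane-bound transcription factor, by 0.55 ± 0.16 (SE) and Atf4 by 0.34 ± 0.11 (SE). The others of the 5 were Xbp1 at 0.37 ± 0.13 (SE) and Ddit3 at 0.46 ± 0.17 (SE). Ddit3 lay below 8.02 on every array but Balb/cBy replicate 2, where it read 8.48. None passed the adjusted threshold.

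Genes that share the ERSE of Syvn1 and Derl3 were then read across the array. The 39 windows belonged to 37 genes, of which 29 were measured and 18 lay above 8.02. Of the 29, 18 were higher and 11 lower, with a median of 0.072. At an unadjusted p under 0.05, 7 were higher and 0 lower, where 2.59% of all genes were higher: Creld2, Syvn1, Hspa5, Ero1b, Alg12, Pan2 and Calr. Derl3 was not among them. Without the 10 degradation genes the count was 6 of 27 (median 0.056). For ERSE-II, 9 genes were measured, 4 higher and 5 lower (median -0.038), and 1, Dnajb11, had an unadjusted p under 0.05. The motif lists share genes with the earlier lists, so their counts are not separate results. Hspa5 was already counted among the unfolded protein response genes and Dnajb11 among those of luminal recognition and trimming. A match of letters in a window does not show that a factor binds there.

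The genes whose values ran most like the mean of the 10 were sought among 10625 other genes above 8.02. Over the 6 arrays Pearson's r was 0.995 for Josd2, a deubiquitinase, 0.989 for Tuba1c, an alpha-tubulin, 0.986 for Slc25a45, a mitochondrial carrier, 0.986 for Dusp3, a phosphatase, and 0.985 for Hrg, a plasma glycoprotein. These are descriptions of 6 arrays that share the split by substrain, and each of the 5 genes also had Balb/cBy arrays above all Balb/c arrays, by 0.11 to 0.17. Josd2 read 8.94, 8.96 and 8.97 on the Balb/cBy arrays and 8.81, 8.62 and 8.66 on the Balb/c arrays, and so followed the mean of the 10 genes in having Balb/c replicate 1 nearest to Balb/cBy.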

How the data were processed

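Liver RNA of 6 mice was hybridised to Affymetrix arrays, 1 per mouse, from 500 ng of total RNA per the labels' protocols. The deposited values are log2 values made with RMA, per the submitters' processing notes; the software version and genome build are not given in the sources used here. RMA pulls dim values together, which shrinks differences at low signal. Of 41345 probe sets in the table, 23521 have 1 symbol in the platform annotation, 1814 have several and 16010 are unlisted in it. Depth has no meaning for arrays, and the number of arrays limits the precision.

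Groups came from the sample titles, which call the arrays biological replicates. limma 3.58.1 in R 4.3.3 was fitted with substrain as the single term to the 23521 probe sets, two-sided, with Benjamini-Hochberg adjustment and a threshold of 0.05. A permutation test of 3 against 3 arrays cannot go below 0.1. The fit was tested on simulated arrays with independent noise and 200 planted changes. Each planted change was larger than any difference of the 10 genes, so the test does not show what the fit detects at their size. The 10 genes, the wider lists and the naming rule were chosen with earlier results of these data known. The rule names all 10, the 4 higher and 4 lower wider genes and the 3 unfolded protein response genes with the smallest p, and the 5 genes most like the mean. Xbp1, Ddit3 and the genes sharing a motif were named after their values were seen. Alternatives were other moderation, array weights, normalization, centring, filtering, probe set choice, a replicate block and left-out arrays.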

Additional observations from a re-analysis of the deposited data

How the results depend on the processing

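Syvn1 and Sel1l kept a positive difference and an unadjusted limma p under 0.05 in all 15 alternatives, and Derl1 kept that p in 3 of them. Over the 10 genes and 15 alternatives, 143 differences kept their direction and their side of the adjusted threshold, 1 newly passed and 6 changed sign. Many of the 143 could not have changed direction. Other moderation, the brightness filter, the fit to every probe set and the replicate block alter only the error and p of a difference. Median centring moves every difference by the same amount, and averaging probe sets can move only Derl2 and Edem1. The count of probe sets passing was 31 with array weights, of which 1 was among the 10 genes (Syvn1), 16 without the 2 arrays of lowest weight, an alternative chosen after seeing the data, and 0 to 4 without 1 array; the other settings gave 0. Without 1 array the median difference of the 10 genes was 0.16 to 0.30 and 0 of them passed. The count at an unadjusted p under 0.05 was 2 to 4. Edem2 changed sign with array weights (-0.031), without Balb/c replicate 3 (-0.085, and up to 0.18 without Balb/c replicate 1) and without the 2 arrays of lowest weight (-0.074). Herpud1 did so without Balb/cBy replicate 2 (-0.0057) or replicate 3 (-0.11), and read 0.43 without replicate 1; Derl3 did so without the 2 arrays of lowest weight (-0.034). The cause was not tested.

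The labels name no pairing by replicate number. Deviations from the group means of same-numbered arrays correlated at -0.32, -0.19 and -0.23. Each was the lowest value for its Balb/cBy array, and no array correlated best with its own number. Deviations within a group cancel out, which ties these correlations to each other, so they cannot settle whether the arrays were paired. A replicate block cannot change the differences in this balanced design, so the median difference of 0.24 was the same by construction. With the block 0 probe sets passed, and the adjusted limma p of Syvn1 was 0.360.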

Other observations

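The nearest measured genes on the chromosome gave a further set of values, read by their order in RefSeq GRCm38.p6. Beside Syvn1, Gm19505 differed by -0.0010 ± 0.20 (SE) and Mrpl49 by -0.15 ± 0.16 (SE). Beside Sel1l, Ston2 differed by -0.010 ± 0.099 (SE) and Flrt2 by 0.12 ± 0.11 (SE). Over the 3 nearest on each side of the 10 genes, 60 genes in all, 36 were higher and 24 lower in Balb/cBy with a median of 0.041, and 2 had an unadjusted limma p under 0.05, 1 higher and 1 lower, where 2.59% of all genes were higher and 1.15% lower at that p. That is near the share over all genes. The 2 were Bhlhe40 beside Edem1, a clock-related repressor, at -0.31 ± 0.12 (SE), and the predicted gene Gm2027 beside Dnajb9 at 0.31 ± 0.11 (SE). They were named after their values were seen.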
